A study of Rattus norvegicus with 10 samples.

Results

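The genes described here were 9 members of the tumor necrosis factor (TNF) superfamily, chosen as a named list and looked up by symbol among the 9003 genes of the table. They were 7 ligands, *Tnf*, *Ltb*, *Tnfsf13b*, *Tnfsf13*, *Tnfsf12*, *Tnfsf9* and *Tnfsf14*, and 2 receptors, *Tnfrsf1a* and *Tnfrsf1b*. All 9 were in the table, so all 9 had passed the authors' filter on low expression. The libraries came from splenic M2 macrophages of female WKY/Ncrj rats, sorted by flow cytometry in 4 groups. Control macrophages (n = 2) came from rats under physiological conditions, and GN macrophages (n = 2) from rats with glomerulonephritis that received no adipose-derived mesenchymal stem cells (ASCs). The nephritis was induced with TF78, a mouse monoclonal antibody against the glomerular basement membrane. EV+ macrophages (n = 3) and EV- macrophages (n = 3) both came from nephritic rats given human ASCs whose membranes had been labeled with the dye DiD. EV+ cells were DiD-positive, which marks uptake of ASC membrane, including extracellular vesicles (EVs), and EV- cells were DiD-negative. The methods call the libraries biological replicates, but the number of rats and of cells behind each library is not given in the sources used here, so the p-values measure the spread between these libraries.

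The libraries held between 19270515 and 26617093 reads on the genes of the table, and 3 reads corresponded to between 0.113 and 0.153 CPM. Macrophage genes were abundant in every library, with *Csf1r* at 5800.4 to 8155 CPM, *Lyz2* at 15325 to 20176 CPM and *Cd68* at 1163 to 1466 CPM. *Mrc1* and *Cd163*, which are often used as M2 markers, were between 0 and 1.81 CPM, so the M2 name here is that of the labels and the sorting gate. The summed level of 21 NK and T cell markers (of 24 listed, 3 not in the table) was 439 to 587 CPM in 9 of the libraries and 1370.1 CPM in EV- 1. The summed level of 20 immediate early and heat shock genes was 22240.3 to 26178 CPM in control, 16387 to 18021 CPM in GN, 11122 to 12490 CPM in EV+ and 11678 to 13386 CPM in EV- macrophages. Control was set apart from the other 3 groups in further marker sums. The sum of 15 macrophage markers (of 18 listed) was 28416 to 28927 CPM in control and 31972 to 34217 CPM in the other 8 libraries, that of 8 neutrophil markers (of 12) was 549.8 to 556 against 611 to 745 CPM, and that of 2 erythroid and platelet markers (of 11) was 1.19 to 1.61 against 3.28 to 7.26 CPM. The part of these sums in the differences against control given below was not tested. Because sorted cells were measured in bulk, fewer cells of a type and less RNA per cell cannot be told apart.

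TNF superfamily ligands are made mostly as trimers anchored in the membrane of immune cells, and proteases such as ADAM17 release some of them as soluble cytokines. They bind TNF receptor superfamily members, which recruit TRAF and death domain adaptors and activate NF-κB or cell death. Macrophages are a main source of TNF-α and also make BAFF (*Tnfsf13b*) and APRIL (*Tnfsf13*), which act on B and plasma cells. TNFR1 (*Tnfrsf1a*) is expressed widely, whereas TNFR2 (*Tnfrsf1b*) is found mainly on leukocytes.

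None of the 9 members passed the test in any comparison. *Tnf* was highest in control and lowest in the EV+ and EV- macrophages, *Tnfsf13b* was lowest in GN, and *Ltb* was lower in all 3 EV+ libraries than in any other library. The receptors *Tnfrsf1a* and *Tnfrsf1b* and the ligand *Tnfsf13* were nearly level across the 4 groups. The test was limma on log2(CPM + 1) with Benjamini-Hochberg adjustment over all 9003 genes and an FDR under 0.1, so each fold change below is on that scale and understates the change of genes near 1 CPM. The share of all genes that limma called was 1.75% for GN against control, 0.122% for EV+ against GN, 0.378% for EV- against GN, 0.0222% for EV+ against EV-, 3.63% for EV+ against control, 2.84% for EV- against control and 2.57% among the 4 groups. At these shares, 0 of 9 is near the background. At an unadjusted p under 0.05 limma gave, in the same order, 2, 1, 2, 0, 3, 0 and 1 of the 9 members, against 10.4%, 7.13%, 7.85%, 4.57%, 15.0%, 13.1% and 12.0% of all genes. edgeR's quasi-likelihood test and DESeq2 also called 0 of the 9 in each, and edgeR's likelihood-ratio test called 1, *Tnfsf13b* in GN against control. The shares of all genes called, in the same order, were 1.63%, 0.1%, 0.4%, 0.0222%, 3.34%, 2.6% and 2.48% with the quasi-likelihood test, 3.24%, 0.478%, 1.4%, 0.633%, 5.73%, 4.93% and 6.84% with the likelihood-ratio test and 3.27%, 0.539%, 1.26%, 0.378%, 6.0%, 5.27% and 6.03% with DESeq2, the last as shares of the genes to which it gave an adjusted p. The comparisons share libraries (control, GN, EV+ or EV-), so their values are not independent of each other.

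**Figure D1:**
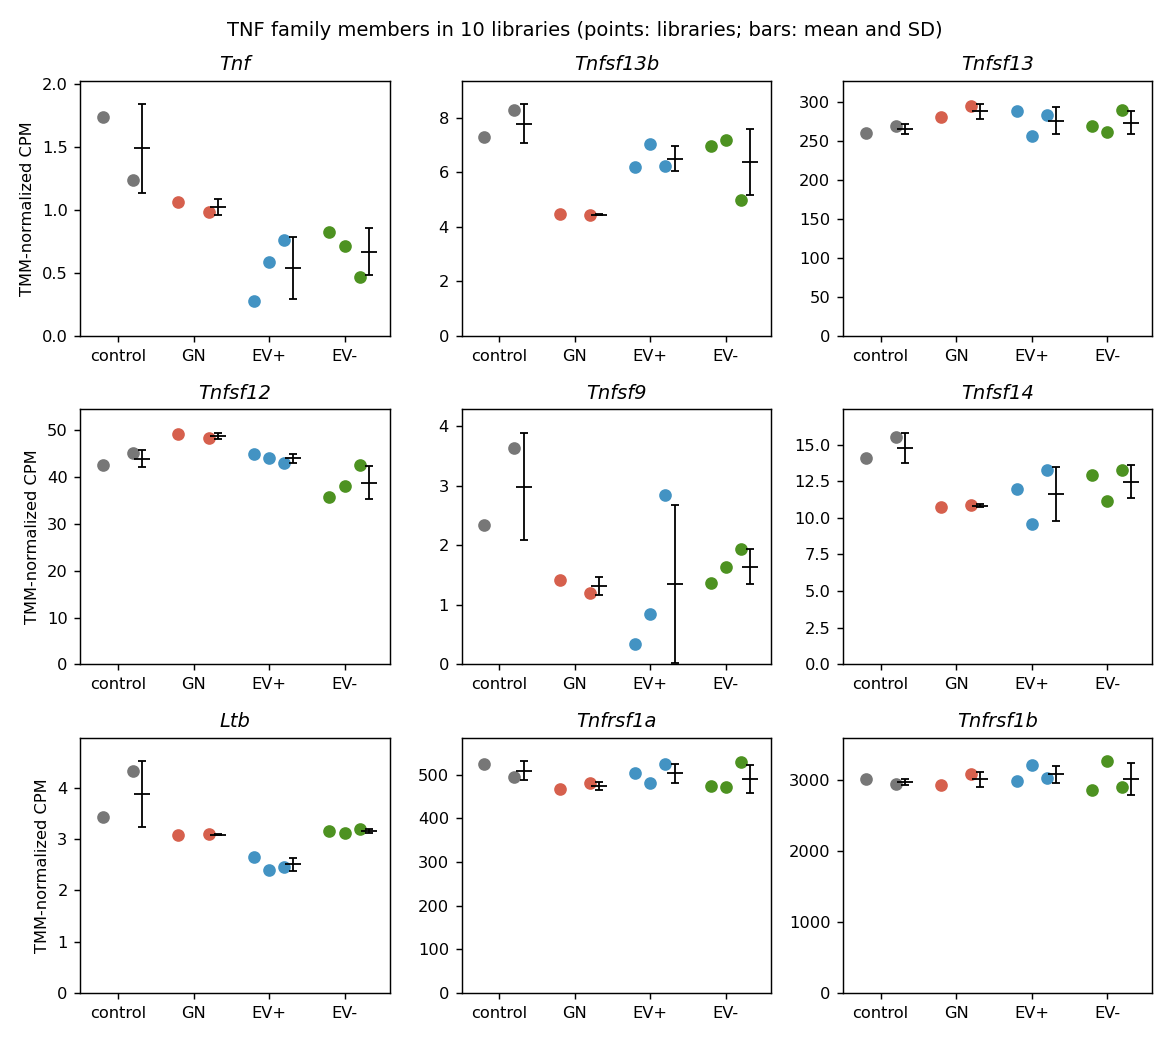
TMM-normalized CPM (linear y axis from 0) of the 9 genes in each of the 10 libraries, by group on the x axis, with points for libraries and bars for the mean and SD. *Tnf* falls into 3 tiers, with control at 1.73 and 1.24 CPM, GN at 1.06 and 0.979 CPM and all 6 EV+ and EV- libraries at or below 0.826 CPM, whereas *Tnfrsf1b* stays between 2855 and 3268 CPM. The 95% Poisson intervals of the *Tnf* read counts overlap between neighbouring tiers, except for EV+ 1. Its interval (0.110 to 0.563 CPM) lies below those of GN 1 (0.702 to 1.55 CPM) and GN 2 (0.640 to 1.43 CPM).

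*Tnf*, which encodes the cytokine TNF-α, was measured at few reads. It was at 1.73 and 1.24 CPM in the control libraries (45 and 30 reads) and at 1.06 and 0.979 CPM in the GN libraries (27 and 26 reads). The EV+ libraries were at 0.273, 0.589 and 0.758 CPM (7, 14 and 17 reads) and the EV- libraries at 0.826, 0.714 and 0.467 CPM (17, 14 and 12 reads). Both control libraries were above both GN libraries, and both GN libraries were above all 6 libraries from ASC-treated rats, while EV+ and EV- overlapped. EV+ was lower than control by a log2 difference of -0.70 (SE 0.270, 95% interval -1.28 to -0.12), with a limma p of 0.0223 and an adjusted p of 0.241. The log2 difference was -0.57 for EV- against control (limma adjusted p = 0.389) and -0.29 for GN against control (limma adjusted p = 0.807), and no neighbouring groups in this order were separated by the test. EV+ and EV- differed by -0.12 with an interval of -0.64 to 0.40, which spans 0. On the recovered reads, without the pseudocount of 1, edgeR's quasi-likelihood test gave log2 fold changes of -1.46 for EV+ (adjusted p = 0.325), -1.15 for EV- (adjusted p = 0.513) and -0.54 for GN (adjusted p = 0.862) against control. The summed level of the immediate early and heat shock genes had the same group order from control to GN to both EV groups, and its part in the *Tnf* values was not tested.

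**Figure D2:**
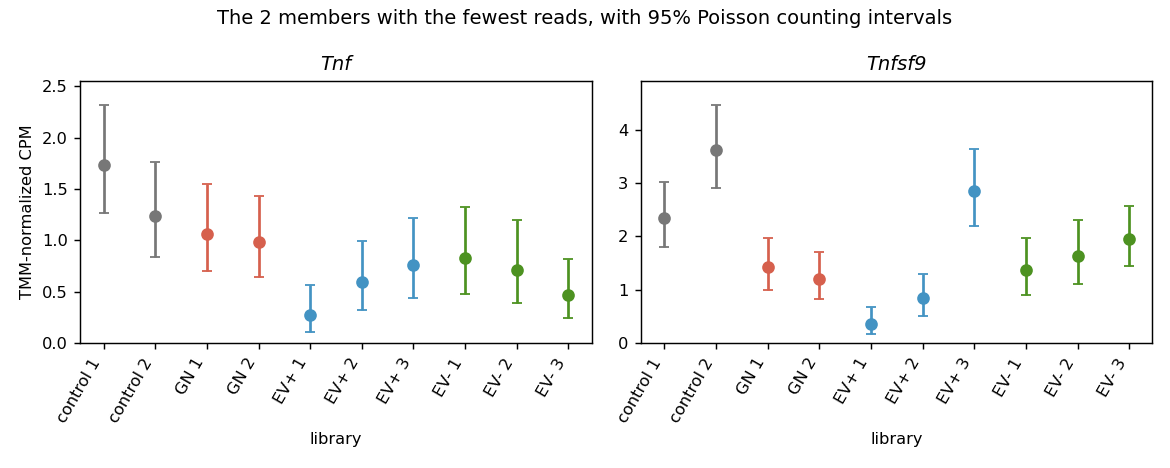
*Tnf* and *Tnfsf9*, the members with the fewest reads, in each library on the x axis, with TMM-normalized CPM on a linear y axis and bars for the 95% Poisson interval of the read count, which covers counting error only. For *Tnf* the interval of control 1 (1.26 to 2.32 CPM), the highest library, lies above that of EV+ 1 (0.110 to 0.563 CPM), the lowest. The interval of control 2 (0.835 to 1.77 CPM) overlaps those of both GN libraries, EV+ 2, EV+ 3, EV- 1 and EV- 2. For *Tnfsf9* the interval of EV+ 3 (2.20 to 3.65 CPM) lies above those of EV+ 1 (0.161 to 0.667 CPM) and EV+ 2 (0.514 to 1.30 CPM).

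*Ltb* encodes lymphotoxin β, a membrane ligand that pairs with lymphotoxin α and signals through the lymphotoxin β receptor in lymphoid tissue. *Lta*, *Tnf* and *Ltb* are neighbours in the RefSeq annotation, and *Lta* itself was not in the table. *Ltb* was at 3.43 and 4.33 CPM in control, 3.08 and 3.09 CPM in GN, 2.66, 2.40 and 2.45 CPM in EV+ and 3.16, 3.11 and 3.19 CPM in EV- macrophages. All 3 EV+ libraries were below every other library, and the EV- libraries lay between GN and control. EV+ and EV- differed by -0.25 on the log2 scale (SE 0.183, 95% interval -0.64 to 0.15), with a limma p of 0.201 and an adjusted p of 1.0. Groups without overlap were found for 1 of 9 members in the higher direction (*Tnfsf12*) and 1 in the lower direction (*Ltb*) in this comparison, against 4.25% and 4.65% of all genes. The log2 difference of EV+ against control was -0.47 for *Ltb* (SE 0.205, limma adjusted p = 0.297). limma without the intensity trend called *Ltb* (adjusted p = 0.0747) and *Tnf* (adjusted p = 0.0977) in this comparison, where that setting called 2.07% of all genes.

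*Tnfsf13b* (BAFF, a survival factor of B cells) was lowest in GN. It was at 7.28 and 8.29 CPM in control, and the GN libraries held 4.46 and 4.44 CPM, followed by 6.21, 7.03 and 6.25 CPM in EV+ and 6.95, 7.19 and 4.98 CPM in EV- macrophages. Both GN libraries were below all other libraries and both control libraries above them, with EV- 3 the library nearest to GN. The log2 difference of GN against control was -0.69 (SE 0.213, 95% interval -1.14 to -0.23), with a limma p of 0.00616 and an adjusted p of 0.196, the smallest of the 9 members in any comparison. edgeR's likelihood-ratio test gave a log2 fold change of -0.81 and an adjusted p of 0.0987, below the threshold, where it called 3.24% of all genes. Among the 4 groups, the adjusted p was 0.386 with limma, 0.399 with the quasi-likelihood test, 0.262 with the likelihood-ratio test and 0.332 with DESeq2. The paper does list *Tnfsf13b* among its genes called across the 4 groups at an FDR under 0.1, in a set lowered by nephritis. The cause of this difference was not tested. Compared with GN, *Tnfsf13b* was higher by 0.46 in EV+ (limma adjusted p = 0.686) and by 0.42 in EV- macrophages (limma adjusted p = 0.622), so neither difference passed the test. EV+ and EV- differed by 0.04, with an interval of -0.34 to 0.41. The summed level of 9 B and plasma cell markers was 50.6 to 75.7 CPM in GN, 93.8 to 117 CPM in control and 76.3 to 85.7 CPM in the EV+ and EV- libraries, which is the group order of *Tnfsf13b*. Other marker sums also set GN apart. That of 3 stromal markers (of 9 listed) was lowest in GN, at 12.5 to 13.4 CPM against 15.0 to 24.0 CPM elsewhere, while those of 7 dendritic cell markers (of 10), at 46.6 to 47.1 against 32.2 to 44.7 CPM, and of the erythroid and platelet markers, at 6.44 to 7.26 against 1.19 to 6.30 CPM, were highest in GN. The part of these lists in the *Tnfsf13b* values was not tested.

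Promoter sequence is shown for *Tnf*, *Ltb* and *Tnfsf13b*, the 3 ligands described so far, whose groups lay apart without passing the test. Each line gives the 250 bases before the gene's start in RefSeq (GRCr8, which is not the build of the table), read 5′ to 3′ on the gene's strand, with the motif matches in capitals. The motifs searched on both strands were the κB motif (GGG, any 2 bases, TTTCC), the interferon-stimulated response motif (GAAA, any 2 bases, GAAA), the TATA box TATAAA, the AP-1 motif TGANTCA, the cyclic AMP motif TGACGTCA and the PU.1 motif GAGGAA, and no match overlapped another.
*Tnf* (chr20:3626435-3626684, plus strand): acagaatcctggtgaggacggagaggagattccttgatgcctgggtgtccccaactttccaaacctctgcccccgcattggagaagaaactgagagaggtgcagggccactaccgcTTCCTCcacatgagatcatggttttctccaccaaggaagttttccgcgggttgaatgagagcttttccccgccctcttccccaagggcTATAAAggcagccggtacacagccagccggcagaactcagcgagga
*Ltb* (chr20:3634055-3634304, minus strand): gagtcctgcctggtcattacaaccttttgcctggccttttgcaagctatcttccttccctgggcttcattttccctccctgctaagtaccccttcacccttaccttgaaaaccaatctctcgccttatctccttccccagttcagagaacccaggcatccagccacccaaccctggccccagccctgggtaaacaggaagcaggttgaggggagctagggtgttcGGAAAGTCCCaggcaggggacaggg
*Tnfsf13b* (chr16:86194500-86194749, minus strand): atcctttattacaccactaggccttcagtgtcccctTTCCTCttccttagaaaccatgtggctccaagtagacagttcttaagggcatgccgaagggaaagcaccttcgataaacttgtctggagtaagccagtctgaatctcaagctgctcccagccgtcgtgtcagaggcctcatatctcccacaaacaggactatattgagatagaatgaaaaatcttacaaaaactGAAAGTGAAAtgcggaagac
*Tnf* held a TATA box 46 to 41 bases before the start, a motif found in 12.9% of the 33469 RefSeq promoters of this length. *Ltb* held a κB match 25 to 16 bases before the start (1.3% of promoters), and *Tnfsf13b* an interferon-stimulated response match 20 to 11 bases before it (3.41% of promoters). The promoter of *Tnfrsf1b*, the member that varied least, also held an interferon-stimulated response match, 10 to 1 bases before its start, and an AP-1 match 186 to 180 bases before it (6.34% of promoters), while those of *Tnfsf13*, *Tnfsf14* and *Tnfrsf1a* held no match. *Tnf* and *Tnfsf13b* also held the PU.1 motif on the other strand, which 23.3% of promoters hold. These are matches of letters and were not tested as binding sites. Of the 9 members, 7 had a promoter entry, and *Tnfsf12* and *Tnfsf9* did not.

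*Tnfsf13* (APRIL, a survival factor of plasma cells and a relative of BAFF) was almost level. It was at 261 and 269.8 CPM in control, 282 and 295 CPM in GN, 289, 257 and 284 CPM in EV+ and 269.8, 262 and 290.4 CPM in EV- macrophages. GN lay above control without overlap, whereas the EV+ and EV- libraries overlapped with both. The largest log2 difference was 0.12 (SE 0.0853, limma adjusted p = 0.69) for GN against control, and over all 6 comparisons the 95% intervals lay within a fold of 0.846 to 1.23.

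The ratio of *Tnfsf13* to *Tnfsf13b* within each library, in CPM that were not corrected for gene length, was 34.2 ± 2.31 (SD, n = 2) in control and 64.8 ± 2.21 (SD, n = 2) in GN. In EV+ it was 42.8 ± 5.51 (SD, n = 3) and in EV- macrophages 44.5 ± 12.0 (SD, n = 3). Both GN libraries, at 63.2 and 66.4, were above every other library, of which EV- 3 was the nearest at 58.3. The two-sided exact permutation test gave p = 0.333 for GN against control, which is the smallest value that 2 against 2 libraries allow. Against GN, the exact permutation test gave p = 0.2 for EV+ and p = 0.2 for EV-, the smallest value that 3 against 2 libraries allow, so the design could not reach 0.05. The ratio of *Tnfrsf1b* to *Tnfrsf1a* stayed between 5.51 and 6.93 over the 10 libraries, with an exact permutation p between 0.333 and 1.0 in the 6 comparisons. *Tnfsf13* over *Tnfsf12* was 7.09 ± 0.416 (SD, n = 3) in EV- and 6.29 ± 0.407 (SD, n = 3) in EV+ macrophages, with no overlap and an exact permutation p of 0.1, the lowest possible for 3 against 3 unpaired libraries. With same-numbered EV+ and EV- libraries taken as pairs, a test added after the values were seen, it was lower in EV+ in all 3 pairs, with an exact paired permutation p of 0.25, the lowest possible for 3 pairs. Over the 18 unpaired ratio comparisons, the lowest Benjamini-Hochberg adjusted value of the exact permutation test was 0.514.

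**Figure D3:**
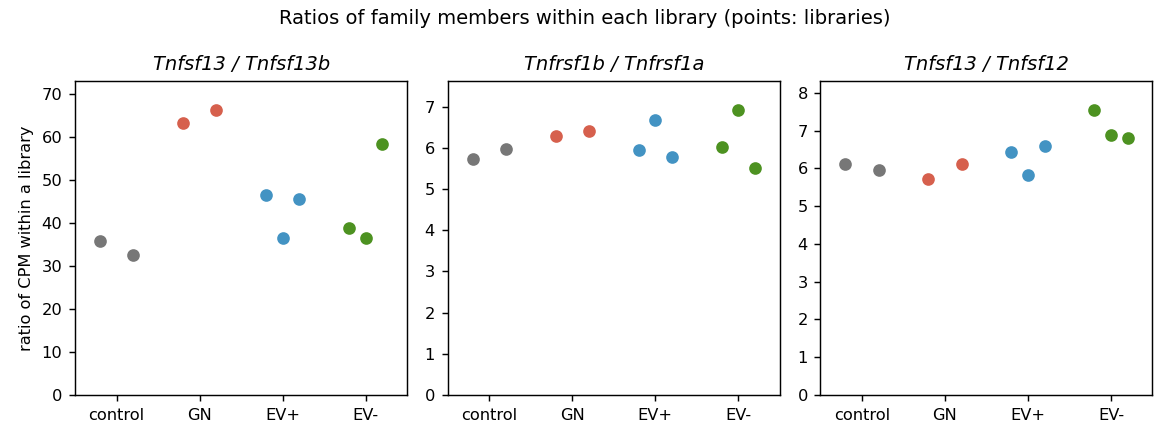
Ratios of CPM within each library (linear y axes from 0) by group on the x axis, with 1 point per library. *Tnfsf13* over *Tnfsf13b* was highest in the GN libraries (63.2 and 66.4) and lowest in control (32.5 and 35.8), and *Tnfrsf1b* over *Tnfrsf1a* stayed between 5.51 and 6.93.

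*Tnfsf12* encodes TWEAK, which acts through the receptor Fn14 (*Tnfrsf12a*) in tissue repair and inflammation, and it neighbours *Tnfsf13* in the RefSeq annotation. It was at 42.6 and 45.2 CPM in control, with GN at 49.2 and 48.2 CPM, then at 44.9, 44.0 and 43.0 CPM in EV+ and 35.7, 38.1 and 42.6 CPM in EV- macrophages. The EV- libraries were below all 3 EV+ libraries and both GN libraries, and only EV- 3 reached the lower control library. The log2 difference of EV- against GN was -0.32 (SE 0.105, 95% interval -0.55 to -0.10), with a limma p of 0.00809 and an adjusted p of 0.394. EV+ was higher than EV- by 0.18 (SE 0.0940, limma adjusted p = 1.0). The receptor gene *Tnfrsf12a* was low, between 0.926 and 2.68 CPM in the 10 libraries.

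*Tnfsf9* encodes 4-1BB ligand, a costimulatory ligand of T and NK cells that activated macrophages carry. It was at 2.35 and 3.63 CPM in control, 1.42 and 1.21 CPM in GN, 0.352, 0.842 and 2.86 CPM in EV+ and 1.36, 1.63 and 1.95 CPM in EV- macrophages, from between 9 and 88 reads. EV+ 3 lay between the control libraries, whereas EV+ 1 and EV+ 2 were the lowest of all 10. The log2 difference of EV+ against control was -0.89 (SE 0.365, 95% interval -1.67 to -0.11, limma adjusted p = 0.269). Without EV+ 3 it was -1.32 with a limma adjusted p of 0.057, below the threshold, where 1.89% of all genes were called. With the replicate number as a block it was -1.14 with a limma adjusted p of 0.0907, also below it, where 4.21% of all genes were called. That block joins control and EV+ libraries of the same number, which neither labels nor methods pair. edgeR's quasi-likelihood test gave -1.15 with an adjusted p of 0.456. GN against control differed by -0.77 without overlap (SE 0.400, limma adjusted p = 0.546).

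*Tnfsf14* encodes LIGHT, which binds the herpesvirus entry mediator (*Tnfrsf14*) and the lymphotoxin β receptor (*Ltbr*). It was at 14.1 and 15.5 CPM in control, 10.8 and 10.9 CPM in GN, 12.0, 9.60 and 13.2 CPM in EV+ and 12.9, 11.2 and 13.3 CPM in EV- macrophages. The control libraries were above all others, EV+ 2 was the lowest library, and EV+ and EV- overlapped. The log2 difference of GN against control was -0.41 (SE 0.182, limma adjusted p = 0.436), with -0.33 for EV+ (limma adjusted p = 0.369) and -0.23 for EV- against control (limma adjusted p = 0.62).

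The TNF receptors were the steadiest members. *Tnfrsf1a* (TNFR1, which carries a death domain) was at 524 and 494 CPM in control, 468 and 480.0 CPM in GN, 504, 482 and 525 CPM in EV+ and 473, 472 and 528 CPM in EV- macrophages. *Tnfrsf1b* (TNFR2, which has no death domain and binds TRAF2) was at 3010.1 and 2949 CPM in control, 2939 and 3084 CPM in GN, 2993, 3219 and 3035 CPM in EV+ and 2855, 3268 and 2909 CPM in EV- macrophages. *Tnfrsf1b* overlapped between groups in all 6 comparisons, and *Tnfrsf1a* was separated without overlap in the comparisons of GN with control and of EV+ with GN. All log2 differences of *Tnfrsf1b* lay between 0.00 and 0.05 and those of *Tnfrsf1a* between -0.10 and 0.09. The 95% intervals over the 6 comparisons lay within a fold of 0.892 to 1.16 for *Tnfrsf1b* and 0.825 to 1.19 for *Tnfrsf1a*. For the ligands these bounds were 0.683 to 1.31 for *Tnfsf12*, 0.531 to 1.38 for *Ltb*, 0.572 to 1.45 for *Tnfsf14*, 0.453 to 1.83 for *Tnfsf13b*, 0.413 to 1.32 for *Tnf* and 0.314 to 1.96 for *Tnfsf9*. The coefficient of variation over the 10 libraries was 4.37% for *Tnfrsf1b*, 4.81% for *Tnfrsf1a* and 4.99% for *Tnfsf13*, and it reached 48.3% for *Tnf* and 55.3% for *Tnfsf9*, where counting error is part of it.

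**Figure D4:**
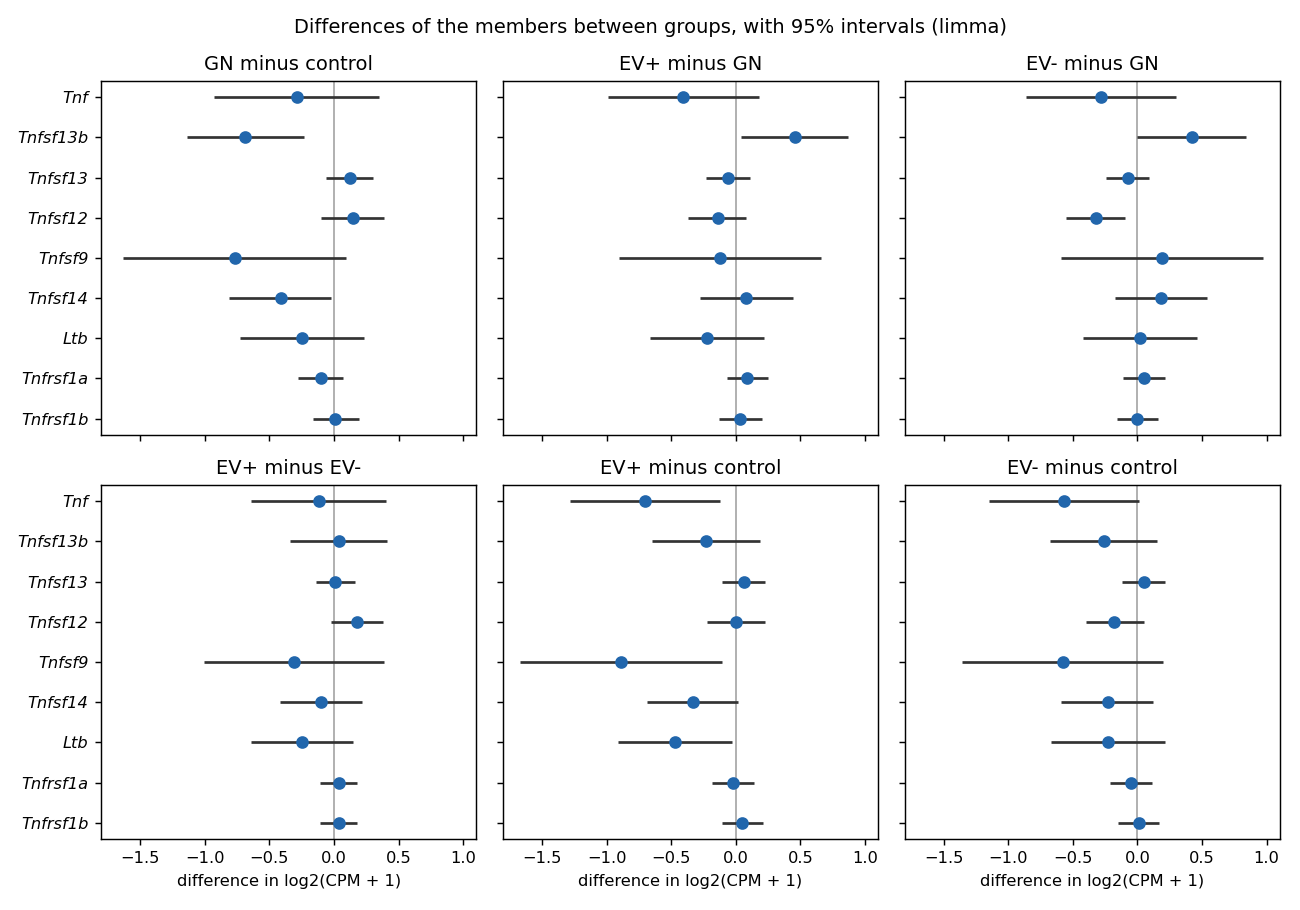
Differences in mean log2(CPM + 1) between groups (x axis) for the 9 genes (y axis) in the 6 comparisons, with points for the limma estimate and bars for its 95% interval. The bars of *Tnfrsf1a*, *Tnfrsf1b* and *Tnfsf13* are short and cross 0 in every panel, and that of *Tnfsf13b* lies below 0 in GN against control (-1.14 to -0.23), although its adjusted p was 0.196.

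In GN against control, 6 of the 9 members were lower and 2 higher without overlap, against 22.0% and 21.9% of all genes for 2 against 2 libraries, and the median log2 difference was -0.25 for the members and 0.00 for all genes. Against GN, EV+ had 2 members higher and 3 lower without overlap (11.2% and 11.8% of all genes), and EV- had 3 higher and 2 lower (12.6% and 12.8%). Against control, 4 members were lower without overlap in EV+ (15.6% of all genes) and 5 in EV-, *Tnf*, *Tnfsf13b*, *Tnfsf9*, *Tnfsf14* and *Ltb* (14.1% of all genes), and none was higher (14.9% and 15.0%). The median log2 difference against control was -0.23 for the members in both EV groups.

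Across the 10 libraries the members did not vary as a unit. The highest Pearson correlations of log2(CPM + 1) between members were 0.72 for *Tnfsf9* and *Tnfsf14* and 0.65 for *Tnfsf14* and *Ltb*, and the lowest was -0.76 for *Tnfsf13b* and *Tnfsf13*. Among genes with a mean of at least 5 CPM, the 3 whose profile was most like that of *Tnf* were *Pim1* (r = 0.933), *Ccrl2* (r = 0.905) and *Rgs2* (r = 0.901). For *Ltb* they were *Hmgb2* (r = 0.975), *Csrp1* (r = 0.947) and *Nt5dc1* (r = 0.92), and for *Tnfsf13b* they included *RGD1308601* (r = 0.911) and *Fam53b* (r = 0.887). For *Tnfsf14* they were *Ring1*, *Lsp1* and *N4bp2l2*, and for *Tnfrsf1b* *Smarcc1*, *Spn* and *Tlr6*, with r between 0.926 and 0.963. These are descriptions over 10 libraries that share their group structure, picked as the highest of all such genes.

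The other receptors of these ligands were mostly scarce. *Ltbr*, the receptor of lymphotoxin β and LIGHT, was at 71.9 ± 0.907 CPM in control (SD, n = 2) and 77.9 ± 2.84 CPM in EV+ macrophages (SD, n = 3), and all 10 libraries lay between 71.2 and 80.8 CPM. *Tnfrsf14* was at 2.48 and 2.18 CPM in GN and at 3.84 CPM in EV- 1, and between 0.379 and 1.12 CPM in the other 7 libraries. *Tnfrsf9* (the receptor 4-1BB) and *Tnfrsf17* (BCMA, a receptor of BAFF and APRIL on plasma cells) were highest in EV- 1, at 1.17 and 1.07 CPM, as was the T and NK cell ligand gene *Faslg* at 2.62 CPM. EV- 1 was also the library with the highest summed level of NK and T cell markers, and their part in these values was not tested. *Tnfrsf13b* and *Tnfrsf13c*, further receptors of BAFF, were not in the table.

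Of the rest of the pathway, genes for ligands, receptors, proteases and adaptors had no call by limma or by edgeR's quasi-likelihood test in any of the 6 comparisons or among the 4 groups, whereas TNF and NF-κB target genes had calls, nearly all lower against control. Of 11 other TNF superfamily ligands 3 were in the table (*Tnfsf10*, *Tnfsf15* and *Faslg*), with 0 to 2 at an unadjusted limma p under 0.05 in a comparison and 0 among the 4 groups. Of 24 other receptors 15 were in the table, with 1 to 4 at that level in a comparison and 5 among the 4 groups. Of 8 proteases and their partners that process ligands 7 were in the table, with 0 to 2 in a comparison and 1 among the 4 groups. Of 34 adaptors and signalling genes 30 were in the table, with 0 to 4 in a comparison and 2 among the 4 groups. Of all genes, 4.57% to 15.0% were at that level in a comparison and 12.0% among the 4 groups. The likelihood-ratio test and DESeq2 made a few calls, here named after their values were seen. In GN against control (3.24% and 3.27% of all genes) both called *Tnfrsf11a* (RANK), *Traf1* and *Cflar* (an inhibitor of caspase 8), with DESeq2 log2 fold changes of 0.46, 0.37 and -0.42, and in EV- against GN (1.4% and 1.26%) both called *Traf1* (-0.38) and DESeq2 alone *Tnfrsf21* (0.28). In EV+ against control (5.73% and 6.0%) both called *Cd40* (-0.51) and *Tnfrsf17*. The latter was at 0 in all 3 EV+ libraries and in control 1 and at 0.825 CPM in control 2, so that call rests on 1 control library. In the same comparison the likelihood-ratio test alone called *Rhbdf1* (-1.33 by that test) and DESeq2 alone *Sppl2a* (0.21). The likelihood-ratio test also called *Tnfrsf17* between EV+ and EV- (0.633% of all genes), and among the 4 groups (6.84%) *Cd27*, *Tnfrsf9*, *Tnfrsf17*, *Faslg* and *Traf1*, of which DESeq2 called *Traf1*. *Tnfrsf9* was at 1.17 CPM in EV- 1 and at or below 0.116 CPM in every other library, and *Faslg* at 2.62 CPM in EV- 1 and at or below 0.815 CPM elsewhere. *Cd27* was at 0.356 ± 0.617 CPM in EV- (SD, n = 3) and at or below 0.0377 CPM in the other groups. The part of EV- 1 in these calls was not tested.

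Of 26 NF-κB subunits, inhibitors and TNF target genes 24 were in the table. limma called 4 of them in GN against control, 10 in EV+ against control and 10 in EV- against control, all lower except *Tnfaip2* in EV+ (0.27, adjusted p = 0.0902, named after its value was seen). Among all genes, 0.822%, 1.81% and 1.56% were called lower in these comparisons. Among the 4 groups limma called 12 of the 24, against 2.57% of all genes. These included *Bcl3* (limma adjusted p = 0.0791), named after its values were seen. *Bcl3* was higher than in GN by 0.41 in EV+ and by 0.41 in EV- (limma adjusted p = 0.212 and 0.134). Against control it was higher by 0.21 in each (limma adjusted p = 0.316 and 0.366). *Ccl3*, a chemokine that attracts leukocytes, was at 825 and 563 CPM in control, with 325 CPM in each GN library, 214, 169 and 205 CPM in EV+ and 253, 178 and 211 CPM in EV- macrophages. Its log2 difference against control was -1.07 in GN (SE 0.173, limma adjusted p = 0.00786), -1.80 in EV+ (SE 0.158, adjusted p = 2.62e-05) and -1.68 in EV- macrophages (SE 0.158, adjusted p = 5.32e-05). Every EV+ and EV- library was below both GN libraries, but the limma adjusted p against GN was 0.187 for EV+ and 0.232 for EV-. *Nfkbia*, the NF-κB inhibitor IκBα, fell in all 3 comparisons with control, from 3995 ± 572 CPM (SD, n = 2) to 2597 ± 251 CPM in GN (SD, n = 2), with a log2 difference of -0.62 (limma adjusted p = 0.0658).

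*Tnfaip8* fell as well, from 164 ± 2.13 CPM in control (SD, n = 2) to 121 ± 9.31 CPM in GN (SD, n = 2, limma adjusted p = 0.0368), as did *Il1b*, the cytokine interleukin-1β, with a log2 difference of -0.64 in GN (limma adjusted p = 0.0772). *Nfkbiz*, an inducible NF-κB cofactor, was lower than in control, with log2 differences of -0.89 in EV+ and -0.95 in EV- (limma adjusted p = 0.018 and 0.0168). Against control, the log2 difference was -0.94 for *Ier3* in EV+ and -0.57 for *Icam1*, an adhesion molecule, in EV- (limma adjusted p = 0.018 and 0.0181). Against GN, limma called 0 of the 24 in EV+, with 7 at an unadjusted p under 0.05 (7.13% of all genes). It called 2 in EV-, where 0.322% of all genes were called lower. These were *Vcam1* (7.43 ± 1.86 CPM in GN, SD, n = 2, and 1.99 ± 0.950 CPM in EV-, SD, n = 3, log2 difference -1.53, limma adjusted p = 0.0406) and *Ccl2* (log2 difference -0.99, limma adjusted p = 0.0833). The corresponding EV+ values were -1.34 for *Vcam1* (limma adjusted p = 0.185) and -0.78 for *Ccl2* (limma adjusted p = 0.409). Between EV+ and EV-, limma called 0 of the 24, with 2 at an unadjusted p under 0.05 (4.57% of all genes).

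The number of calls in this list depended on single libraries. Without control 1, the library with the highest *Ccl3*, 1 of the 24 genes was called in each of the 3 comparisons with control, where 0.966%, 1.95% and 1.27% of all genes were called in GN, EV+ and EV-. In EV+ against control, 6 were called without control 2 (1.27% of all genes) and 5 without EV+ 2 (3.14%). In GN against control, 0 were called without GN 1 (0.378%) and 1 without GN 2 (0.455%), and in EV- against GN 0 without either (0.0778% and 0.133%). edgeR's quasi-likelihood test called 4, 9 and 11 in GN, EV+ and EV- against control (1.63%, 3.34% and 2.6% of all genes), and against GN 0 in EV+ (0.1%) and 2 in EV- (0.4%). In EV+ against GN the likelihood-ratio test and DESeq2 each called 4 (0.478% and 0.539% of all genes), and in EV- against GN each called 6 (1.4% and 1.26%). limma with the replicate block called 2 in EV+ (0.333%) and 5 in EV- (0.589%) against GN. The list was chosen with earlier results of these data known, and 1 of its members, *Ccl5*, also stands among the NK and T cell markers.

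**Figure D5:**
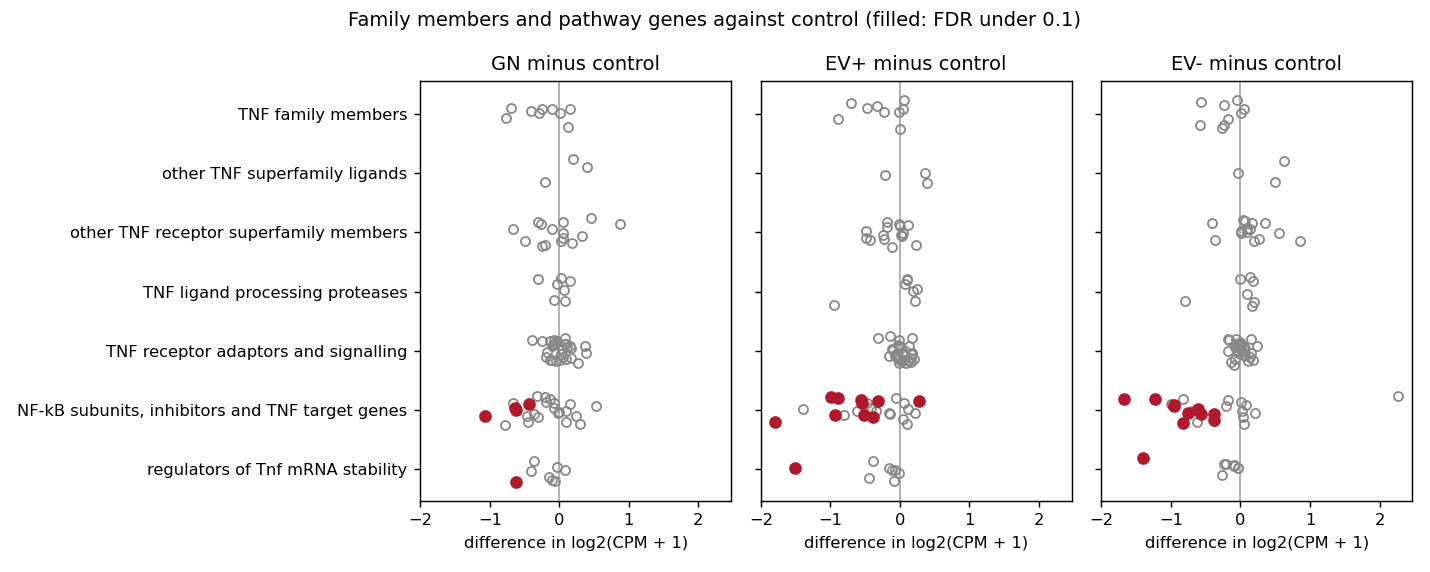
Differences in mean log2(CPM + 1) against control (x axis) for the genes of 7 lists (y axis) in GN, EV+ and EV- macrophages, with 1 point per gene, filled where the limma FDR was under 0.1. Filled points are found among the NF-κB and TNF target genes (4, 10 and 10 of 24) and for *Zfp36* among the regulators of *Tnf* mRNA stability, and none among the 9 family members.

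Of 9 regulators of *Tnf* mRNA stability, 8 were in the table and 1 was called. *Zfp36* encodes tristetraprolin, which binds AU-rich elements of *Tnf* and other mRNAs and promotes their decay. It was at 2591 ± 374 CPM in control (SD, n = 2), 1684 ± 122 CPM in GN (SD, n = 2), 905 ± 70.8 CPM in EV+ (SD, n = 3) and 988 ± 172 CPM in EV- macrophages (SD, n = 3). The groups of control, GN and the 6 EV+ and EV- libraries did not overlap. By limma, it fell in 5 of the 6 comparisons, with log2 differences of -0.62 in GN against control (adjusted p = 0.048), -0.90 in EV+ against GN (adjusted p = 0.0156) and -0.78 in EV- against GN (adjusted p = 0.0147). EV+ and EV- differed by -0.12 (SE 0.111, limma adjusted p = 1.0). The group order of *Zfp36* was that of *Tnf* and of the immediate early and heat shock genes. Of the latter, limma called 4 of 20 in GN, 15 in EV+ and 12 in EV- against control. Against GN it called 2 in EV+ and 3 in EV-, and all these calls were lower. Of all genes, 0.822%, 1.81% and 1.56% were called lower against control in GN, EV+ and EV-. Against GN, 0.122% in EV+ and 0.378% in EV- were called in either direction. The part of the immediate early and heat shock genes, and of the macrophage, neutrophil and erythroid marker sums that set control apart, in the values of *Tnf*, of *Zfp36* and of the TNF target genes was not tested.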

How the data were processed

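RNA of splenic M2 macrophages was extracted with an RNeasy Plus Micro Kit, and libraries were made with SMART-Seq v4 and Nextera XT kits, which do not mark strand. The authors aligned paired-end reads to rn6 with STAR (2.5.3), counted them on RefSeq genes with HTSeq (0.6.0, intersection-strict), removed genes with a maximum under 1 CPM and applied TMM normalization in edgeR. The deposited values are therefore TMM-normalized CPM, a signal per gene not corrected for length, for 9003 genes and 10 libraries, of which 18 carried date-like symbols.

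Whole reads were recovered from the CPM steps (100% of values within a tolerance of 0.01), and TMM-normalized CPM recomputed from them lay within 4e-05 of the deposited ones. limma (3.58.1, R 4.3.3) was fitted to log2(CPM + 1) of all 10 libraries and 4 groups with an intensity trend and 6 residual degrees of freedom, and p-values were adjusted over all 9003 genes with an FDR under 0.1. The alternatives were edgeR (4.0.16) quasi-likelihood and likelihood-ratio tests and DESeq2 (1.42.0) on the recovered reads, RLE size factors, a pseudocount of 0.1, at least 1 CPM in 2 libraries, no intensity trend, the replicate block, only the groups compared, and each library left out. The same alternatives for the NF-κB and TNF target list were added after seeing the data. Poisson intervals and the floor of 3 reads are for counting error alone, as no molecular identifiers were used. Replicates of a group had chi-square values of 13.4 to 45.4 for each degree of freedom, and no library was a repeat of another. Only the limma fit was tried on simulated data, with changes placed in GN and in genes expressed above the level of *Tnf*, *Tnfsf9* and *Ltb*. That trial covers neither those genes nor edgeR and DESeq2.

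Neither labels nor methods pair the libraries. Residuals of same-numbered EV+ and EV- libraries correlated at 0.203, 0.295 and 0.122, each above 0.1, which was read as a sign of pairing, on the data alone. The main limma fit had no replicate term, so its EV+ against EV- values ignore any such pairing. Replicate numbers entered only as the replicate block and in the paired test of the ratios. For GN and control the correlation was 0.088, and the block joined their numbers with those of the EV+ and EV- libraries too. The members and lists were chosen with earlier results of these data known. Named genes were all 9 members, the genes called in the other lists (up to 4 with the lowest adjusted p per list and comparison), the other receptors of the members, and the 3 genes nearest in profile to each member, of which 1 is not reported here. Promoters came from RefSeq (GRCr8).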

Additional observations from a re-analysis of the deposited data

Results flagged for a closer look

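*Ltb* differed in direction between the EV groups when each was set against GN, though for EV- the difference was near 0. The log2 difference was -0.22 in EV+ (95% interval -0.66 to 0.22) and 0.02 in EV- (95% interval -0.42 to 0.46). Both intervals span 0. GN was at 3.08 and 3.09 CPM. All 3 EV+ libraries were lower (2.66, 2.40 and 2.45 CPM) and all 3 EV- libraries higher (3.16, 3.11 and 3.19 CPM). The direct difference between EV+ and EV- was -0.25 on the log2 scale (SE 0.183, 95% interval -0.64 to 0.15) and did not pass the limma test (adjusted p = 1.0), and the GN libraries are shared by both contrasts. *Ltb* had between 55 and 105 reads per library, and the EV- libraries exceeded the higher GN library by little. No cause was tested.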

How the results depend on the processing

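The count of members called was 0 in each comparison and stayed so except in 4 alternatives. It was 1 with the likelihood-ratio test in GN against control (*Tnfsf13b*), 2 without the intensity trend in EV+ against control (*Tnf* and *Ltb*), 1 with the replicate block in EV+ against control (*Tnfsf9*), and between 0 and 1 when each library was left out in EV+ against control (*Tnfsf9* without EV+ 3). The replicate block changed no other call of a member. Apart from leaving out libraries, 476 log2 differences of the members kept their direction and side of the threshold, 4 newly passed it and 6 changed sign. The sign changes were near 0. *Tnfsf12* in EV+ against control was -0.023, *Tnfsf9* in EV- against GN -0.065 and *Tnfrsf1b* in EV- against GN 0.015 with the block, and *Tnfsf9* in EV+ against GN was 0.031 with edgeR's quasi-likelihood test, 0.034 with its likelihood-ratio test and 0.033 with DESeq2. When libraries were left out, 246 of them kept both, 1 newly passed and 23 changed sign. In EV+ against EV- the ranges were -0.22 to 0.0085 for *Tnf*, -0.11 to 0.12 for *Tnfsf13b*, -0.02 to 0.065 for *Tnfsf13*, -0.74 to 0.016 for *Tnfsf9*, -0.2 to 0.018 for *Tnfsf14* and -0.0013 to 0.1 for *Tnfrsf1b*. In EV+ against GN they were -0.55 to 0.21 for *Tnfsf9*, -0.013 to 0.2 for *Tnfsf14* and -0.0013 to 0.068 for *Tnfrsf1b*, and in EV- against GN -0.0039 to 0.077 for *Tnfrsf1a* and -0.063 to 0.035 for *Tnfrsf1b*. Against control they were -0.037 to 0.044 for *Tnfsf12* and -0.06 to 0.027 for *Tnfrsf1a* in EV+, -0.048 to 0.05 for *Tnfrsf1b* in EV- and -0.02 to 0.05 for *Tnfrsf1b* in GN. The cause of these changes was not tested. Without the intensity trend, 0, 3 and 1 of the 24 NF-κB and TNF target genes were called in GN, EV+ and EV- against control and 0 in EV- against GN. In EV+ against control that setting called 2.07% of all genes. With only the groups compared, 5 were called in EV+ against control and 1 in EV+ against GN. The share of all genes is not at hand for the remaining counts of these 2 settings, so they cannot be set against the background. The likelihood-ratio test and DESeq2 each called 1 of the 24 between EV+ and EV- (0.633% and 0.378% of all genes). DESeq2 gave no adjusted p for *Tnf*, *Ltb* and *Tnfsf9* in EV+ against GN. Depth limits *Tnf* and *Tnfsf9* most, at 7 to 45 and 9 to 88 reads.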
